A study of Homo sapiens with 6 samples.

Results

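The genes described here are 10 members of the NRF2 and thioredoxin antioxidant system, chosen by name as the rows of the count and FPKM tables with the symbols NFE2L2, KEAP1, SQSTM1, NQO1, OSGIN1, TXN, TXNRD1, PRDX1, SRXN1 and SOD2. The rule found 10 genes of the 28565 in the count table, each symbol once, and all 10 passed the filter on low counts. They were measured by RNA-seq after removal of ribosomal RNA in the human kidney cell line HK-2, which derives from proximal tubule epithelium, in 3 libraries after 24 h of cisplatin, a platinum drug that crosslinks DNA, against 3 libraries at 0 h. Both groups had been transfected with a plasmid that overexpresses a lncRNA (long noncoding RNA), LncR2 in the titles, so the comparison is of 24 h with 0 h of cisplatin in transfected cells and does not measure the lncRNA. Cells with the control plasmid were not analysed here. None of the libraries used was kept for 24 h without cisplatin, so cisplatin and time after transfection cannot be told apart. Whether the libraries are separate cultures is not labelled, and the series text gives 2 biological replicates where 3 libraries stand, so p-values measure a spread that may be technical.

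NRF2, encoded by NFE2L2, is a transcription factor that is made continuously and destroyed just as continuously. Its adaptor KEAP1 hands it to a CUL3 ubiquitin ligase, and oxidants or electrophiles that modify cysteines of KEAP1 stop this, so that NRF2 enters the nucleus and, with small MAF proteins, binds antioxidant response elements. The switch therefore works mainly at the level of protein, and the RNA of its target genes is the usual readout. SQSTM1 (p62) binds KEAP1 and delivers it to autophagy, and is itself a target. NQO1, a quinone reductase, is the textbook target, while TXN, TXNRD1, PRDX1 and SRXN1 form a chain that removes peroxide with electrons from NADPH. In bulk libraries fewer cells of a type and less RNA per cell cannot be told apart.

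Promoter windows bear on the members because NRF2 acts through the antioxidant response element. The set of RefSeq windows used here (GRCh38.p14) held 9 of the 10 genes and had none for PRDX1. They are shown for NQO1, which had the largest fold change of the 10, and for the 3 genes that hold a motif, each from 250 bases before to 50 bases after the start site, 5′ to 3′ on the strand of the gene, with motif matches in capitals. The motifs were the core TGACNNNGC and the AP-1 site TGACTCA, on both strands; an AP-1 site followed by G and C would match both.
NQO1, chr16:69726511-69726810, minus strand: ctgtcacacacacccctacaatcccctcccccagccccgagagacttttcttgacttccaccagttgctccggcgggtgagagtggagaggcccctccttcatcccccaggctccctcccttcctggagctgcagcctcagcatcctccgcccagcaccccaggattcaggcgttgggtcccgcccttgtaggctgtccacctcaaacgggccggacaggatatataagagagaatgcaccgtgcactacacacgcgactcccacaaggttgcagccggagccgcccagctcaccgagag
TXNRD1, chr12:104215529-104215828, plus strand: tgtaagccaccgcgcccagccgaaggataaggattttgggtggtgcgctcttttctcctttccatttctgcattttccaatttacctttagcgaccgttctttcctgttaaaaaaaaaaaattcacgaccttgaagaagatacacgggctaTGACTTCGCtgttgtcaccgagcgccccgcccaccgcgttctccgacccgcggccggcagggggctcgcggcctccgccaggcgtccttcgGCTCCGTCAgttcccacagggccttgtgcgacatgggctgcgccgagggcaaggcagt
TXNRD1, second start, chr12:104286782-104287081, plus strand: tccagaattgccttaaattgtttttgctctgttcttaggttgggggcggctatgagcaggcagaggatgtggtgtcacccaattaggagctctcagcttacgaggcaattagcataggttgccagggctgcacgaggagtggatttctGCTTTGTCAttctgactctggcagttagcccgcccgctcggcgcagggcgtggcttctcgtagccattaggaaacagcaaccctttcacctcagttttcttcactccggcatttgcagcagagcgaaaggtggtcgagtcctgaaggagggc
KEAP1, chr19:10502722-10503021, minus strand: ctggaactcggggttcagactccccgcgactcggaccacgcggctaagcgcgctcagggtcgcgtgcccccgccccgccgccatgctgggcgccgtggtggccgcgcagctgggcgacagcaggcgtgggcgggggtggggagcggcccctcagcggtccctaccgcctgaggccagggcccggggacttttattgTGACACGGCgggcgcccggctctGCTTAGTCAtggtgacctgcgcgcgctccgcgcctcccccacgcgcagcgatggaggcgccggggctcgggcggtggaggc
OSGIN1, chr16:83952990-83953289, plus strand: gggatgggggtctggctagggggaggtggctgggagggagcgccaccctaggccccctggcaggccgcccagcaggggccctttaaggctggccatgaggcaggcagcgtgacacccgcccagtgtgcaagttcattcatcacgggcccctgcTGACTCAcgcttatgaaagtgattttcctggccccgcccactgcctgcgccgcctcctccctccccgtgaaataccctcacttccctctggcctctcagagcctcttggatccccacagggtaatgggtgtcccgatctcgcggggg

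Both TXNRD1 windows and 1 of the KEAP1 windows held the core, which 13.3% of 35116 windows of the same length held. In the TXNRD1 windows the matches began at -99 and -8 from the first start and at -102 from the second, and in KEAP1 at -54 and -31. Of the 17 windows of these genes, the AP-1 site was in 1 window of OSGIN1, at -97, and it was in 4.95% of all windows. NQO1 held neither set of letters in this window. A match is a description of letters only, and windows farther from the start were not used here.

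Total counts were 6022268 to 7248754 per library at 24 h and 5028881 to 5844246 at 0 h. Of 8 markers of simple and renal epithelium 7 passed the filter and 0 were called. The summed level of the 8 was 1023 to 1129.7 CPM (read counts scaled per library by total count) at 24 h and 1053 to 1138 CPM at 0 h. CDH1 (E-cadherin), however, reached at most 0.199 CPM in any library. All marker CPM are scaled by total count, whereas CPM of the genes described below are scaled by TMM unless stated. Of 9 markers of the mature proximal tubule 7 had counts and only GGT1 passed the filter, so the label was borne out by epithelial genes and hardly by mature tubule genes. No counts were found for LRP2, SLC22A6, PDGFRA, KDR, PTPRC, CD3E or MS4A1. Summed markers were 15.9 to 19.1 CPM at 24 h and 14 to 15.9 CPM at 0 h for fibroblasts, at most 0.427 CPM at 24 h and 0.397 CPM at 0 h for endothelium, and 1.24 to 3.42 CPM at 24 h and 2.18 to 2.57 CPM at 0 h for leukocytes. The library of 0 h replicate 3 stood apart, with a second principal component (27.7% of variance) of 30.4 where the other 0 h libraries had 1.48 and -8.5. On the first component (39.3%) it was at 1.28, against -23.8 and -24.5 for the other 0 h libraries and 6.29 to 22.9 at 24 h. Values without 0 h replicate 3 are therefore given for the members that it moves.

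None of the 10 genes passed the test at 24 h. NQO1 came nearest, with a level 1.31 times that at 0 h, and TXN was next at 1.21 times, whereas NFE2L2 itself was at 0.872 times and SQSTM1 at 0.862 times their 0 h levels, or at log2 fold changes of 0.04 and 0.03 when scaled by the totals behind the authors' FPKM. Genes were called at a Benjamini-Hochberg adjusted p under 0.05 over all 13389 genes tested, by the quasi-likelihood test of edgeR with TMM scaling. It called 2.94% of all genes, 0.866% as higher and 2.08% as lower, so 0 of 10 is not apart from the background. At an unadjusted p under 0.05 there were 2 of the 10, NQO1 and TXN, against 18.1% of all genes tested, and DESeq2 called 1 of the 10, NQO1, where it called 0.957% of all genes as higher. The median log2 fold change of the 10 was 0.09, against 0.00 for all genes tested, and 7 of the 10 were above 0, against 49.7% of all genes.

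**Figure D1:**
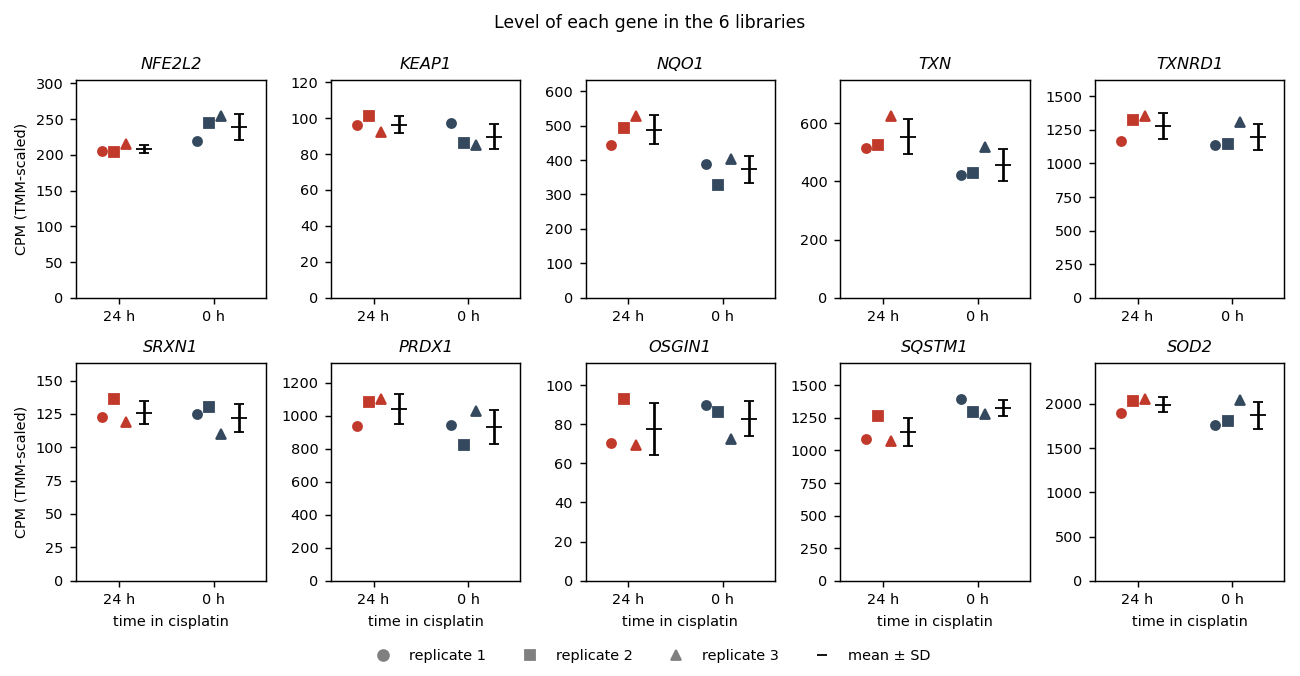
Level of each of the 10 genes in CPM of TMM-scaled totals (vertical axis, from 0) at 24 h and 0 h of cisplatin; each point is a library, and the black bar is the mean ± SD of 3. The points of NQO1 at 24 h (443 to 527 CPM) lie above those at 0 h (328 to 402 CPM), those of NFE2L2 and SQSTM1 lie below with this scaling but not with the FPKM totals, and those of the other 7 genes overlap.

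The core of the switch is NFE2L2 with its inhibitor KEAP1. NFE2L2 (ENSG00000116044.15, GRCh38 chromosome 2, 177227595 to 177392697, minus strand) had 206, 204 and 215 CPM in the 24 h libraries, against 219, 244 and 254 CPM at 0 h. Every 24 h library was below every 0 h library, a pattern shown by 11.7% of all genes tested. The log2 fold change was -0.20 ± 0.10 (SE, n = 3 per group; 95% interval -0.41 to 0.01; edgeR adjusted p = 0.303), and without 0 h replicate 3 it was -0.15. KEAP1 (ENSG00000079999.13, chromosome 19, 10486120 to 10503741, minus strand) had 96.3, 101 and 92 CPM at 24 h, against 97.5, 86.4 and 84.9 CPM at 0 h. Its groups overlapped, because 0 h replicate 1 was as high as the 24 h libraries, and its log2 fold change was 0.11 ± 0.10 (95% interval -0.11 to 0.32; edgeR adjusted p = 0.635).

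SQSTM1 (ENSG00000161011.19, chromosome 5, 179806398 to 179838078, plus strand), the autophagy receptor that sequesters KEAP1, had 1089, 1263 and 1069.7 CPM at 24 h, against 1393, 1294 and 1281 CPM at 0 h. Its groups did not overlap, with the 24 h libraries lower, but 24 h replicate 2 lay just under the lowest 0 h library. The log2 fold change was -0.21 ± 0.11 (95% interval -0.45 to 0.02; edgeR adjusted p = 0.318), and it was -0.23 without 0 h replicate 3. The direction of both NFE2L2 and SQSTM1 is relative to the median gene and turned with another scaling, as given below.

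NQO1 (ENSG00000181019.12, chromosome 16, 69706996 to 69726951, minus strand) had 443, 494 and 527 CPM at 24 h, against 388, 328 and 402 CPM at 0 h. The groups did not overlap, as for 10.9% of all genes tested in this direction, and NQO1 averaged 488 ± 42.3 CPM in the 24 h libraries and 373 ± 39.2 CPM in the 0 h libraries (SD, n = 3 each). The log2 fold change of 0.39 ± 0.11 (95% interval 0.15 to 0.62) missed the threshold by edgeR (adjusted p = 0.0714) and passed it by DESeq2 (adjusted p = 0.0177). Without 0 h replicate 3, where 4.18% of all genes were called higher, NQO1 was called at 0.45 (edgeR adjusted p = 0.00334). With each of the other libraries left out in turn it was not called, at 0.30 to 0.45 (edgeR adjusted p = 0.0915 to 0.356). The smallest of these fold changes was without 0 h replicate 2, the lowest library. NQO1 was called in 8 of 20 alternative analyses, with log2 fold changes of 0.30 to 0.63 over all 20. Those that called it called 1.21% of all genes as higher with no filter on low counts, 4.84% and 4.42% by limma on log2(FPKM + 1) and log2(FPKM + 0.1), and 2.28% without both libraries numbered 3. OSGIN1 (ENSG00000140961.12, chromosome 16, 83948282 to 83966332, plus strand), a growth inhibitor induced by oxidative stress, had 70.4, 92.8 and 69.3 CPM at 24 h, against 89.7, 86.2 and 72.6 CPM at 0 h. Its highest value was in 24 h replicate 2 and its groups overlapped fully, with a log2 fold change of -0.09 ± 0.13 (95% interval -0.37 to 0.18; edgeR adjusted p = 0.759) that turned positive with the scaling described below and was -0.18 without 0 h replicate 3.

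In the thioredoxin chain, TXNRD1 passes electrons from NADPH to TXN (thioredoxin), which reduces PRDX1, a peroxiredoxin that destroys peroxide, and SRXN1 (sulfiredoxin) repairs peroxiredoxins that have been overoxidised. TXN (ENSG00000136810.12, chromosome 9, 110243811 to 110256640, minus strand) had 514, 523 and 623 CPM at 24 h, against 422, 428 and 519 CPM at 0 h. Replicate 3 was the highest library of each group, and 0 h replicate 3 lay inside the 24 h range, so the groups overlapped. Its log2 fold change was 0.28 ± 0.12 (95% interval 0.03 to 0.52; edgeR adjusted p = 0.214). Without 0 h replicate 3, where 4.18% of all genes were called higher, TXN was called at 0.38 (edgeR adjusted p = 0.0147). With each of the other libraries left out in turn it was not called, at 0.18 to 0.33 (edgeR adjusted p = 0.251 to 0.567).

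TXNRD1 (ENSG00000198431.15, chromosome 12, 104215779 to 104350305, plus strand) had 1168, 1319.9 and 1350.4 CPM at 24 h, against 1135, 1148 and 1308 CPM at 0 h. PRDX1 (ENSG00000117450.13, chromosome 1, 45511036 to 45523047, minus strand) had 935, 1081 and 1099 CPM at 24 h, against 941, 820.1 and 1029 CPM at 0 h. SRXN1 (ENSG00000271303.1, chromosome 20, 646615 to 653370, minus strand) had 123, 136 and 119 CPM at 24 h, against 125, 130.4 and 110.3 CPM at 0 h. All 3 genes overlapped between the groups. Their log2 fold changes were 0.10 ± 0.11 for TXNRD1, 0.16 ± 0.12 for PRDX1 and 0.05 ± 0.10 for SRXN1, with edgeR adjusted p = 0.708, 0.514 and 0.853. Their 95% intervals end at 0.33, 0.40 and 0.27, so these data do not exclude rises of that size. TXNRD1 and KEAP1, the 2 genes with the NRF2 core motif in the windows above, had log2 fold changes of 0.10 and 0.11. Letters farther from the start were not searched, so genes with and without the motif cannot be compared here. Without 0 h replicate 3 the log2 fold changes of TXNRD1 and PRDX1 were 0.17 and 0.24 (edgeR adjusted p = 0.382 and 0.172), and that of SRXN1 was -0.02.

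SOD2 (ENSG00000112096.16, chromosome 6, 159669057 to 159745186, minus strand, matched to GENCODE 29 by its unversioned identifier), the manganese superoxide dismutase of mitochondria, is driven by NF-kB as well as by oxidative stress. It had 1892, 2028 and 2053 CPM at 24 h, against 1756, 1811 and 2046 CPM at 0 h. The 0 h replicate 3 library reached the level of the 24 h libraries, and the log2 fold change was 0.09 ± 0.11 (95% interval -0.15 to 0.32; edgeR adjusted p = 0.731), or 0.16 without 0 h replicate 3 (edgeR adjusted p = 0.418). In 0 h replicate 3 the level was the highest of the 0 h group for NFE2L2, NQO1, TXN, TXNRD1, PRDX1 and SOD2 and the lowest for KEAP1, OSGIN1, SQSTM1 and SRXN1.

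Fold changes of these genes depend on how libraries are scaled. The authors' FPKM (fragments per kilobase of gene, scaled to library size) rest on library totals that can be recovered from the ratio of count to FPKM. Relative to 0 h replicate 1 these totals were 1.1, 1.13 and 1.17 at 24 h and 1, 1 and 1.13 at 0 h, whereas the count totals were 1.2, 1.39 and 1.44 at 24 h and 1, 0.998 and 1.16 at 0 h. Scaled by the FPKM totals, the median log2 fold change of all genes tested became 0.24 and 17.6% of all genes were called higher. There NQO1 (0.63, adjusted p = 0.00259), TXN (0.52, adjusted p = 0.0107) and PRDX1 (0.40, adjusted p = 0.0434) were called by edgeR, 3 of the 10 genes. NFE2L2, SQSTM1 and OSGIN1 turned to 0.04, 0.03 and 0.15 there, none of them called by edgeR. Relative to the median gene, NQO1 was at 0.40 with the FPKM totals and 0.39 with TMM, and NFE2L2 was at -0.20 with both.

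**Figure D2:**
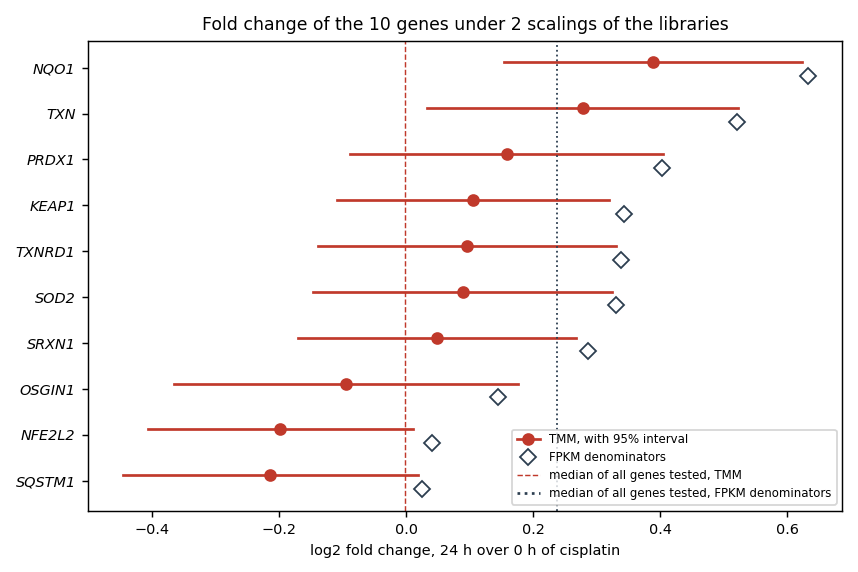
Log2 fold change of the 10 genes, 24 h over 0 h of cisplatin (horizontal axis): red points with 95% intervals are TMM-scaled, and open diamonds are scaled by the authors' FPKM totals. Vertical lines mark the median of all genes tested, at 0.00 for TMM and 0.24 for the FPKM totals, and NQO1 lies farthest to the right under both.

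The ratio of each gene's count to that of NFE2L2 in the same library is free of any scaling. NQO1 had 2.15, 2.42 and 2.45 counts per count of NFE2L2 at 24 h, against 1.77, 1.35 and 1.58 at 0 h. This is a log2 difference of 0.59 ± 0.13 (SE of the difference), and without any 1 library it stayed between 0.48 and 0.68. The ratio of TXN to NFE2L2 was 2.49, 2.56 and 2.9 at 24 h, against 1.93, 1.76 and 2.04 at 0 h, a log2 difference of 0.47 ± 0.09. In both genes every 24 h library was above every 0 h library.

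Of the 9 ratios to NFE2L2, 5 were higher at 24 h without overlap, those of NQO1, TXN, PRDX1, TXNRD1 and SOD2. NFE2L2 is itself low at 24 h under TMM, and 30.1% of all genes tested had a ratio to it that was higher without overlap, against 3.34% with a lower one. PRDX1, TXNRD1 and SOD2 differed by 0.36 ± 0.13, 0.29 ± 0.07 and 0.29 ± 0.05 on the log2 scale. The other 4 overlapped, with KEAP1 at 0.30 ± 0.14, SRXN1 at 0.24 ± 0.14, OSGIN1 at 0.09 ± 0.22 and SQSTM1 at -0.02 ± 0.14. An exact two-sided permutation test cannot go below p = 0.1 with 3 libraries against 3, which those 5 ratios reached, and the adjusted exact p was 0.18 over the 9 ratios. TXN also stood higher relative to its reductase TXNRD1, at 0.44, 0.397 and 0.461 at 24 h against 0.372, 0.373 and 0.397 at 0 h, a log2 difference of 0.18 ± 0.07. That pair was chosen after its values were seen.

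**Figure D3:**
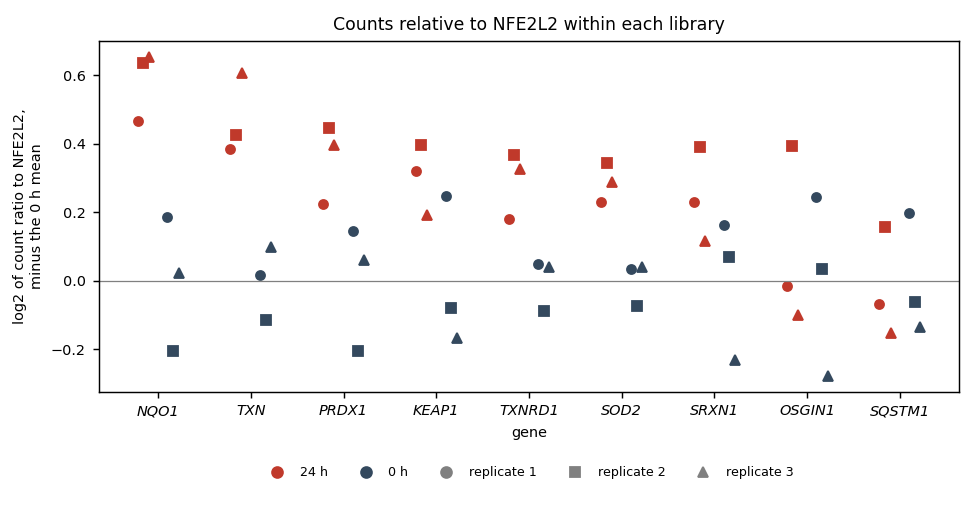
Log2 of each gene's count divided by the count of NFE2L2 in the same library, minus the mean at 0 h (vertical axis), for 9 genes; each point is a library of 24 h (red) or 0 h (dark). For NQO1, TXN, PRDX1, TXNRD1 and SOD2 all 3 red points lie above the dark ones, and for SQSTM1 they mix.

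Levels can be compared between genes per length, in FPKM. PRDX1 and TXN led, with 553 ± 82.4 and 425 ± 69.4 FPKM at 24 h and 419 ± 44.5 and 296 ± 34 FPKM at 0 h (SD, n = 3 each). SQSTM1 had 218 ± 27.6 FPKM at 24 h and 214 ± 9.29 FPKM at 0 h, TXNRD1 had 169 ± 23.6 and 134 ± 10.3 FPKM, NQO1 had 104 ± 15.6 and 67.2 ± 6.6 FPKM, and SOD2 had 74.8 ± 8.06 and 59.5 ± 4.77 FPKM in the same order. The lowest were SRXN1 with 31.1 ± 3.21 FPKM at 24 h and 25.5 ± 2.31 FPKM at 0 h, NFE2L2 with 30.6 ± 2.57 and 29.7 ± 2.31 FPKM, KEAP1 with 20.3 ± 1.51 and 16 ± 1.17 FPKM, and OSGIN1 with 19 ± 3.8 and 17.2 ± 1.91 FPKM. Neighbours in this order whose ranges overlapped were SRXN1 with NFE2L2 and OSGIN1 with KEAP1 in both groups, PRDX1 with TXN at 24 h, and NQO1 with SOD2 at 0 h.

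The place of SQSTM1 in that order hung on the gene length, whereas SOD2 stayed the sixth. The authors' counts per FPKM make SOD2 20.3 times as long as TXN, against 14.4 times by the exons of GENCODE 29, and SQSTM1 3.96 times, against 6.7 times. With GENCODE 29 exon lengths and CPM scaled by total count, SQSTM1 stood below TXNRD1 at 24 h. It had 149 CPM per kilobase, against 190.5 CPM per kilobase for TXNRD1, and at 0 h the ranges of both overlapped. SOD2 had the most counts of the 10 genes and overlaps WTAP on the other strand, as SQSTM1 overlaps MGAT4B and NFE2L2 overlaps AGPS, each with at least 580 counts per library. TXNRD1 overlaps the protein-coding EID3, with 104 to 163 counts per library, on its own strand. SRXN1, OSGIN1 and SOD2 overlap further protein-coding annotations on theirs, that of SOD2 under the same symbol. Whether counting used strand is not stated, so these values are uncertain where exons overlap.

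Around these genes, the other NRF2 targets were higher more often than lower. Of 32 tested outside the 10, 4 rose and 1 fell, against 0.866% and 2.08% of all genes. A log2 fold change above 0 was found for 28, against 49.7% of all genes, and the median was 0.28 against 0.00 for all genes tested. The list was chosen with earlier results of these data known. CBR1, a carbonyl reductase, rose by 0.61 ± 0.14 on the log2 scale, with 74.7 ± 10.5 CPM at 24 h and 48.9 ± 9.71 CPM at 0 h (SD, n = 3 each; edgeR adjusted p = 0.0313). HMOX1 (heme oxygenase) and EPHX1 (epoxide hydrolase) rose by 0.47 ± 0.10 and 0.46 ± 0.09 on the log2 scale (edgeR adjusted p = 0.0147 and 0.0133). SLC7A11, which imports cystine, fell by 0.69 ± 0.09 (edgeR adjusted p = 7.61e-04), with 123 ± 2.96 CPM at 24 h and 198 ± 9.1 CPM at 0 h, and the call held whichever library was left out.

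The 4 rises were less stable, and over the 5 lists described here 13 of 77 genes tested were called higher without 0 h replicate 3, against 4.18% of all genes. None of the 4 was called once replicate 2 of either group or 24 h replicate 3 was left out, and EPHX1 was also lost without 24 h replicate 1. The edgeR adjusted p without 1 library reached 0.212 for CBR1, 0.119 for HMOX1 and 0.108 for EPHX1.

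Among 11 regulators of NRF2, 1 fell and 0 rose (median 0.07). This was NFE2L1 (NRF1), the relative of NRF2 that controls proteasome genes, at 258 ± 15.6 CPM in 24 h libraries and 367 ± 30 CPM in 0 h libraries, a log2 fold change of -0.51 ± 0.10 (edgeR adjusted p = 0.0133). The call for NFE2L1 did not survive the removal of the second 0 h library or of 24 h replicate 2 or 3 (edgeR adjusted p up to 0.0914), nor the FPKM totals (-0.27, edgeR adjusted p = 0.119). GSK3B, a kinase that marks NRF2 for a second ubiquitin ligase, did not pass, at -0.31 ± 0.09 (edgeR adjusted p = 0.09).

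Among 17 further thioredoxin and peroxiredoxin genes 1 fell and 0 rose, and 12 had a log2 fold change above 0 (median 0.17). TXNIP, which binds and inhibits thioredoxin, had 79.2, 93.1 and 79.7 CPM at 24 h, against 137, 150.1 and 138 CPM at 0 h. The groups lay far apart, and the fall of 0.75 ± 0.10 on the log2 scale (edgeR adjusted p = 7.03e-04) was called whichever library was left out. It was also called with the FPKM totals, at -0.51. The count of TXN per count of TXNIP was 6.49, 5.63 and 7.82 at 24 h, against 3.09, 2.85 and 3.75 at 0 h, a log2 difference of 1.04 ± 0.18 for a pair chosen after its values were seen. MSRB1, a methionine sulfoxide reductase, had the next smallest p and did not pass (0.41 ± 0.12, edgeR adjusted p = 0.0886). The peroxiredoxins PRDX2, PRDX3, PRDX4, PRDX5 and PRDX6 lay between 0.10 and 0.28 on the log2 scale, as PRDX1 did at 0.16, and none of them was called by edgeR with TMM.

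Of 8 other superoxide and peroxide genes tested, 1 fell and 0 rose (median 0.23). GPX8, a peroxidase of the endoplasmic reticulum, fell by 0.48 ± 0.11 (edgeR adjusted p = 0.0251), a call lost with the FPKM totals (-0.24) and once replicate 2 of either group or 24 h replicate 1 was left out, where the edgeR adjusted p reached 0.156. CAT (catalase) was at 0.45 ± 0.16 and did not pass (edgeR adjusted p = 0.146). Beside SQSTM1, 0 of 9 autophagy receptor and LC3 family genes were called by edgeR, 2 had an unadjusted p under 0.05, close to the 18.1% of all genes, and the median was -0.04. The receptor NBR1, a relative of SQSTM1, was at -0.33 ± 0.11 (edgeR adjusted p = 0.103), and MAP1LC3B (LC3B) at -0.24 ± 0.10 (edgeR adjusted p = 0.223).

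With the FPKM totals the median of each list shifted with that of all genes, to 0.52 for the other targets, 0.31 for the regulators, 0.41 for the thioredoxin and peroxiredoxin genes, 0.47 for the superoxide and peroxide genes, and 0.20 for the autophagy genes, whose sign turned. There 17 of the 32 other targets were called higher and 1 lower, beside 3 higher of the 11 regulators, 9 higher and 1 lower of the 17 thioredoxin and peroxiredoxin genes, 4 higher of the 8 superoxide and peroxide genes and 2 higher of the 9 autophagy genes, against 17.6% of all genes as higher and 1.46% as lower. The shares of the regulators and the autophagy genes are near that of all genes at these numbers.

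**Figure D4:**
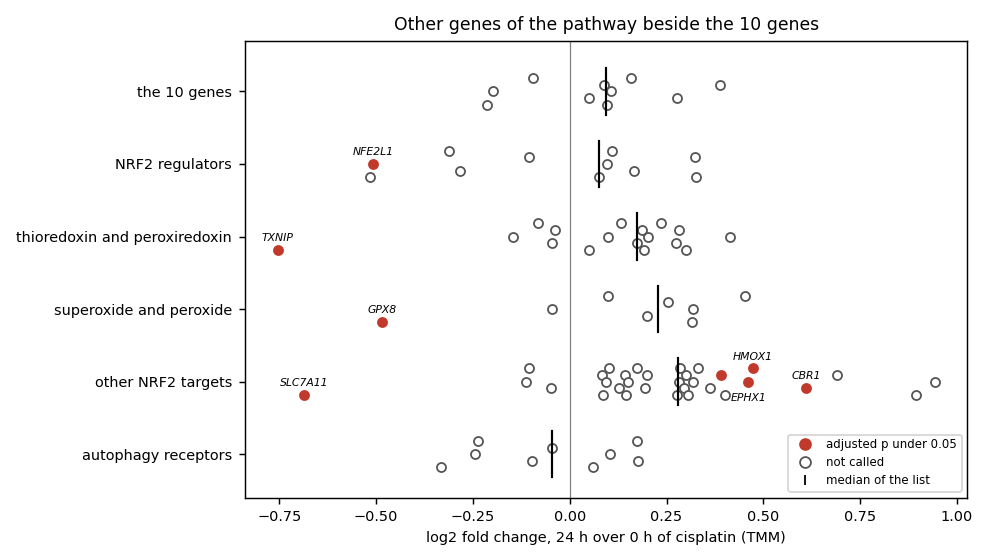
Log2 fold change, 24 h over 0 h of cisplatin (horizontal axis), of the 10 genes and of 5 lists of other genes in the pathway; each circle is a gene, filled red where the edgeR adjusted p was under 0.05, and the black bar is the median of the list. None of the 10 genes is filled, and the filled genes to the left are NFE2L1, TXNIP, GPX8 and SLC7A11.

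Over the 6 libraries, the genes with a mean of at least 20 CPM whose log2 CPM followed NFE2L2 most closely were LMNB1 (Pearson's r = 0.992), STIM2 (r = 0.992) and API5 (r = 0.99), of 7637 compared. For NQO1 they were MRPL53 (r = 0.997), PLEKHJ1 (r = 0.995) and VSIG10 (r = 0.993). These are descriptions over 6 points that share their libraries, and none of those genes was called by edgeR.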

How the data were processed

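RNA-seq read counts and FPKM of 6 libraries were used. The deposited counts are whole reads per gene, not normalized, and the deposited FPKM are scaled by the authors per length and library and rounded. The submitters' processing notes name GRCh38, TopHat2, bcl2fastq and edgeR; the counter, the annotation and any use of strand were not given in the sources used here. Counts at 24 h and 0 h were compared in edgeR 4.0.16 (R 4.3.3) by the quasi-likelihood test with TMM, the default filterByExpr filter and no covariates, and checked on simulated data. SE comes from the model, and 95% intervals cover spread and counting error. Positions and exon lengths come from GENCODE 29 (GRCh38), promoters from RefSeq.

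Members and lists were chosen with earlier results of these data known. The genes named are the 10 members, in each list the called genes and the 2 with the smallest p, and the 3 genes most correlated with NFE2L2 and with NQO1; the peroxiredoxins and ratios not to NFE2L2 were added after their values were seen. Of the genes this rule takes, 1 is left unnamed. Reads carried no molecular identifiers. Replicates of a group differed by more than sampling noise. Alternatives were other scalings, filters, robust dispersion, DESeq2 1.42.0, limma 3.58.1 on log2(FPKM + 1) and log2(FPKM + 0.1), a replicate block, protein-coding genes alone and left-out libraries.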

Additional observations from a re-analysis of the deposited data

How the results depend on the processing

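Over 20 alternatives, KEAP1, NQO1, TXN, TXNRD1, PRDX1 and SOD2 kept their direction, and 0 of the 10 genes was called lower under any. Genes called in all numbered 394, and 2549 with the FPKM totals, 740 with no filter on low counts, 767 and 699 by limma on log2(FPKM + 1) and log2(FPKM + 0.1), 32 by limma with no filter, 845 without both libraries numbered 3, and 113 to 1497 without 1 library. Of the 10 genes, 3 were called higher with the FPKM totals, 1 with no filter on low counts, by DESeq2, by limma with either pseudocount and without both libraries numbered 3 (NQO1 in each), and 0 to 2 without 1 library.

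Of 77 tested members of the 5 lists, 4 were called higher, against 0.866% of all genes. With the FPKM totals 35 were, against 17.6%, and with no filter on low counts 7 of 78, against 1.21%. By limma with either pseudocount 11 and 10 of 74 were, against 4.84% and 4.42%. By limma with no filter 0 of 78 were, against 0.077%. Without both libraries numbered 3 there were 9, against 2.28%, and without 1 library 0 to 13, against 0.153% to 4.18%. Those called lower were 4, against 2.08% of all genes, and 2 with the FPKM totals, against 1.46%. By limma with either pseudocount 1 was, against 0.579% and 0.523%, and with no filter 0, against 0.035%. Without 1 library 2 to 4 were called lower, against 0.672% to 6.72%. With the FPKM totals and by limma on log2(FPKM + 1) and log2(FPKM + 0.1), NFE2L2 was at 0.041, 0.03954 and 0.04071, OSGIN1 at 0.1455, 0.1254 and 0.1312 and SQSTM1 at 0.02551, 0.01865 and 0.0187. The values by limma on log2(FPKM + 1) were the same with no filter. SRXN1 turned to -0.01586 without 0 h replicate 3 and to -0.009214 without 24 h replicate 2, within a range of -0.01586 to 0.09531 without 1 library. The cause was not tested, apart from the shift of all genes by 0.24 with the FPKM totals.

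The replicate number as a block gave 1698 called genes, 5.52% of all as higher and 7.16% as lower. NQO1 and TXN were 2 of the 10 called higher there. Of the 77 list genes tested, 16 were called higher and 7 lower. Deviations of same-numbered libraries correlated at 0.241, -0.0199 and 0.422, and those of differently numbered libraries at -0.368 to 0.226. Whether the number marks a shared culture or batch is not labelled and was not tested. Rises were 29.4% of calls with TMM and 92.3% with the FPKM totals, 89.3% by limma on log2(FPKM + 1), 43.5% with the block and 46.6% with no filter.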
